A study of Arabidopsis thaliana with 24 samples.

Results

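The step from 1 h to 2 h of low light (LL) was examined in whole *Ch1* seedlings of Arabidopsis, as LL 2 h against LL 1 h with 3 libraries a side. These 6 libraries of the 24 in the study were chosen by their labels alone, as neighbouring times of which neither is the untreated 0 h group. *Ch1* (chlorina 1) lacks chlorophyll a oxygenase and so makes no chlorophyll b, the pigment that fills and stabilises the light-harvesting antenna. The study placed such seedlings in LL or high light (HL) for 0, 1, 2 or 4 h and counted transcripts at their 3′ ends by MARS-seq. Seedlings of ecotype Columbia were 2 weeks old, had grown on sugar-containing medium under 16 h of light and 8 h of dark, and were moved into double-distilled water before exposure. LL was 30 µE and HL was 1000 µE, and all groups share the *Ch1* mutation, the age and the transfer to water. By the paper's methods the growth light lay between them, so LL was dimmer and HL brighter than the light of growth. No wild-type library is among those used here, so a change in the step cannot be set against plants with chlorophyll b. Longer exposure to LL and longer time in water cannot be told apart in this comparison. The clock times of exposure and harvest are not given in the sources used here.

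As background, a leaf cell moved to new light adjusts several gene groups at different speeds. Light-harvesting chlorophyll-binding proteins (LHCB at photosystem II, LHCA at photosystem I) collect light and pass it on, and their nuclear genes are among the most strongly transcribed of a green plant. Cold-regulated (COR) genes encode protective proteins of drying or freezing cells and are driven by CBF factors bound to the DRE element. Heat shock factors switch on chaperones such as HSP101 and HSP70 when proteins unfold, and their transcripts are short-lived once the stress ends.

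A gene was called higher or lower at an adjusted p under 0.05 in edgeR's quasi-likelihood test, with Benjamini-Hochberg adjustment over all 10930 genes of the LL table, and a change of at least 2-fold. Levels are in CPM (the share of a library's counts, scaled by TMM), and changes are log2 of 2 h over 1 h with their standard error (SE). Library totals ran from 1163870 to 2061753 counts at 1 h and from 1307887 to 1628151 at 2 h. LL 2 h replicate 2 stood apart from its group: 167 of 4592 genes with a mean of 20 CPM or more were at least 2-fold lower there than in both other 2 h libraries, against 4 to 12 genes for each of the other 5 libraries. The counts of genes called in the step over the whole table are also given without it, as are some list values. The replicates are separate samples by their labels, and no label says that they were separate cultures. The p-values and SEs of the step measure only spread between libraries, estimated over all 12 LL libraries, those at 0 h and 4 h included.

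Most transcripts that moved between 1 h and 2 h of LL went down. At 2 h 68 genes were called lower (0.622% of those tested) and 18 were called higher (0.165%), beside a median log2 change of 0.024 over all genes. At any fold, 203 genes (1.86%) had an adjusted p under 0.05, 161 of them lower. Of the 68 lower genes, 67 had all 3 libraries at 2 h below all 3 at 1 h, where 8.79% of all genes did so. Of the 18 higher genes, 13 had all libraries at 2 h above those at 1 h, where 8.18% of all genes did so. The calls were made from these same libraries, so a lack of overlap follows largely from the call and is no separate support. Without LL 2 h replicate 2 the counts were 79 lower and 48 higher, and 59 of the 68 and 17 of the 18 were called again. The number of higher genes moved by over 1.5 times with every library left out: it was 10, 9 and 8 without LL 1 h replicates 1, 2 and 3, and 11 and 6 without LL 2 h replicates 1 and 3. The number of lower genes fell to 45 without LL 1 h replicate 1 and to 45 without LL 2 h replicate 1, and the sum of both fell to 53 without LL 2 h replicate 3. In all 6 fits with a library left out, 30 of the 68 lower genes and 2 of the 18 higher genes were called. Near-identical copies (CAB1 to CAB3, LHCB2.1 and LHCB2.2, COR15A and COR15B, KIN1 and KIN2, VSP1 and VSP2) share stretches of sequence, and how reads were split between the members of each family is uncertain.

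**Figure D1:**
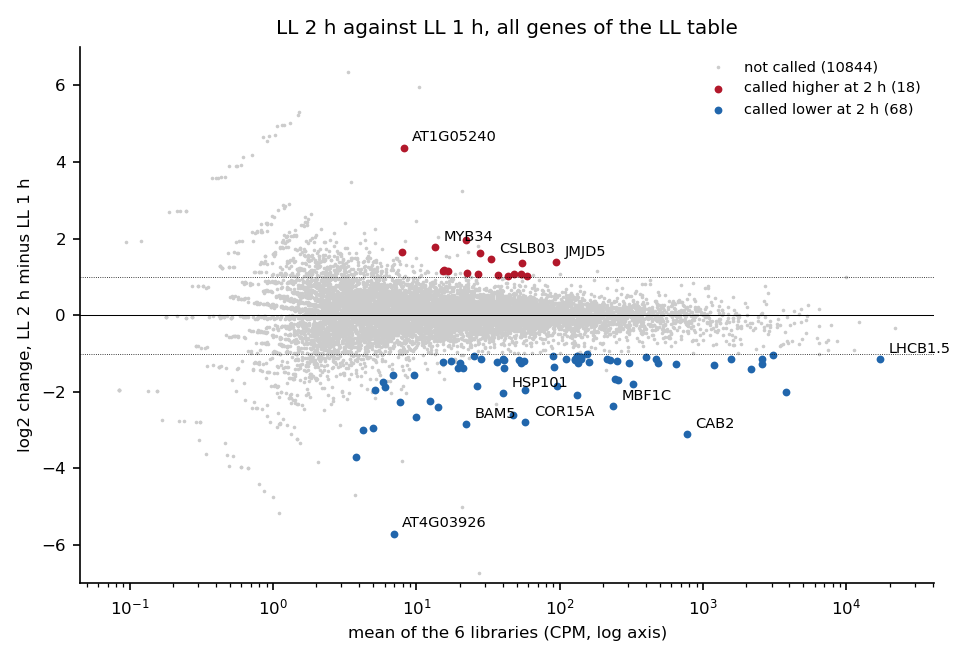
Each point is 1 gene of the LL table, placed by its mean over the 6 libraries (CPM, log axis) and its log2 change of LL 2 h minus LL 1 h, with dotted lines at 2-fold. The 68 genes called lower (blue) reach from weakly to very strongly expressed genes such as LHCB1.5, while the 18 called higher (red) are of low to moderate level.

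The antenna genes fell further. All 21 listed LHCB and LHCA genes were measured, 7 were called lower and none higher, and the median log2 change was -0.77, against 0.024 over all genes. At any fold, 13 of the 21 had an adjusted p under 0.05, all lower, against 1.86% of all genes in either direction. In 16 every 2 h library lay below every 1 h library, against 8.79% of all genes. Over all genes 0.622% were called lower and 0.165% higher, and these shares stand beside the counts of each list below. Summed over the list, antenna transcripts made up 93884, 99868 and 101825 CPM at 1 h and 41956, 68828 and 41211 CPM at 2 h. The high value among these is LL 2 h replicate 2, and without it 10 members were called lower and the median was -0.98. In these bulk samples fewer cells of a type and less RNA per cell cannot be told apart.

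CAB2, an LHCB1 gene, had 1369, 1210 and 1540 CPM at 1 h and 140, 220 and 121 CPM at 2 h, after a mean of 10625 CPM (SD 1362, n = 3) at 0 h. Its log2 change was -3.10 (SE 0.202, adjusted p = 7.7e-08 in edgeR), an 8.59-fold fall within the hour. CAB3, its neighbour in the same family, went from 5866, 5685 and 6659 CPM to 1270, 1993 and 1272 CPM (log2 change -2.01, adjusted p = 1.2e-06). Both genes were below every 1 h library in all 3 libraries at 2 h, which was a condition for naming them among the largest changes. LHCB2.3 went from 71.5, 85.1 and 88.5 CPM to 10.7, 15.4 and 13.6 CPM (log2 change -2.61, adjusted p = 1.2e-06). LHCB2.1 (480, 504 and 521 CPM to 144, 153 and 140 CPM) and LHCB2.2 (391, 375 and 397 CPM to 128, 125 and 107 CPM), which encode the mobile trimers of photosystem II with LHCB2.3, fell by 1.79 and 1.69 on the log2 scale. CAB2, CAB3 and the 3 LHCB2 genes were called in each of the 6 fits with a library left out.

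The family did not fall evenly. LHCB1.5, the most abundant member, had 22853, 24026 and 24370 CPM at 1 h and 7855, 16190 and 7973 CPM at 2 h, a log2 change of -1.15 (adjusted p = 0.0102). It became -1.59 without LL 2 h replicate 2, and the call was lost at -0.98 without LL 2 h replicate 1 (adjusted p = 0.0694) and at -0.98 with LL 2 h replicate 3 left out (adjusted p = 0.0759). LHCA4, an antenna protein of photosystem I, had 3929, 4395 and 4015 CPM at 1 h and 1521, 2737 and 1750 CPM at 2 h (log2 change -1.04, adjusted p = 0.00423), and went under 2-fold without LL 1 h replicate 2 (-0.99), LL 2 h replicate 1 (-0.88) and LL 2 h replicate 3 (-0.95). CAB1, of the same CAB cluster, had a log2 change of -0.91 and stayed under the 2-fold limit, with means of 14712 CPM (SD 736, n = 3) and 7813 CPM (SD 1638, n = 3). At the other end LHCA5 (0.10, adjusted p = 0.848) and LHCA6 (0.05, adjusted p = 0.962), rare members found at the edge of photosystem I, had mean levels of 178 and 32.4 CPM at 1 h and 191 and 33.8 CPM at 2 h.

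Outside the antenna, the photosystem genes moved in smaller steps. Of 29 genes of the photosystem cores and the electron transport chain, 1 was called lower and none higher, 10 had an adjusted p under 0.05 at any fold (all lower), and the list median was -0.45 (-0.69 without LL 2 h replicate 2). The called gene was PSAO, a small subunit of photosystem I beside which the mobile antenna docks, with 3187, 3179 and 3024 CPM at 1 h and 1058, 1370 and 1146 CPM at 2 h (log2 change -1.39, SE 0.136, adjusted p = 8.18e-06). Among the 23 measured genes of tetrapyrrole synthesis, GUN5, the H subunit of magnesium chelatase at the branch to chlorophyll, was the single member called. It had 314, 297 and 322 CPM at 1 h and 124, 156 and 133 CPM at 2 h, a log2 change of -1.18 (adjusted p = 2.86e-05). PORB, a light-dependent protochlorophyllide reductase, had a log2 change of -0.66 (adjusted p = 0.00969), and the list median was -0.18, with -0.10 when LL 1 h replicate 1 was left out and -0.28 when LL 1 h replicate 3 was. Of the 17 Calvin cycle genes none was called, and they moved both ways at any fold: 3 had an adjusted p under 0.05 with a lower level (carbonic anhydrase CA1 at -0.99, RBCS3B at -0.67 and rubisco activase RCA at -0.66) and 1 with a higher level (RBCS1B at 0.72). In the photoprotection list ABA1, the zeaxanthin epoxidase that also opens the path to abscisic acid, went from 46.6, 50.0 and 26.8 CPM to 5.01, 17.0 and 12.4 CPM (log2 change -1.85, adjusted p = 0.00234).

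Of the 8 measured shoot markers, which include the photosynthesis genes LHCB3 and PSBO1, none was called and 2 had an adjusted p under 0.05 at any fold, both lower. Their summed level ran from 17916 to 19382 CPM at 1 h and from 11675 to 14999 CPM at 2 h, and the list median was -0.51. Over the 11 measured root markers the sum ran from 239 to 302 CPM at 1 h and from 215 to 319 CPM at 2 h (median log2 change 0.10, and -0.09 without LL 2 h replicate 1, none called). The 4 vascular markers ran from 203 to 278 CPM and from 175 to 205 CPM. No measured marker of these lists was at 0 in all 6 libraries, and the seedlings held the transcripts of shoot and root. Every gene of the LL table has at least 6 counts in some LL library, so markers near 0 throughout would be missing from it. The part of tissue makeup in the falls was not tested.

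The list of cold-regulated genes held as many calls as the antenna. Of 17 listed genes 15 were measured, 7 were called lower, none was called higher, and the median log2 change was -1.38. Over all genes 0.622% were called lower. COR15A, which encodes a protective protein of the chloroplast stroma, had 117, 72.2 and 114 CPM at 1 h and 10.7, 13.1 and 19.2 CPM at 2 h. That is a 6.92-fold fall (log2 change -2.79, SE 0.333, adjusted p = 7.76e-05), and it went on to 1.72, 0 and 1.1 CPM at 4 h. COR15B, its tandem copy, went from 19.3, 20.4 and 12.2 CPM to 1.43, 3.08 and 3.39 CPM (log2 change -2.66). LTI78, also known as RD29A, went from 152, 132 and 164 CPM to 44.3, 37.8 and 42.9 CPM (log2 change -1.84, SE 0.187, adjusted p = 1.24e-05). KIN2 was the most abundant of the 7, with 2431, 1747 and 2292 CPM at 1 h and 828, 997 and 1123 CPM at 2 h (log2 change -1.13). The remaining called members were KIN1 (-1.38) and the dehydrins LTI30 (-1.15) and ERD10 (-1.02). The CBF factors CBF1 and CBF2 were at no more than 1.01 CPM in the 1 h and 2 h libraries, too few counts to show a change at this depth. Of the 7 calls, those of COR15A, COR15B, LTI78 and KIN2 held with each library left out, and LTI30 went to -0.91 without LL 2 h replicate 2. ERD10 went to -0.97 without LL 1 h replicate 2 and to -0.98 without LL 2 h replicate 3, and KIN1 to an adjusted p of 0.122 without LL 1 h replicate 1 and of 0.0791 without LL 2 h replicate 1.

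The promoters of COR15A and LTI78, both of which hold the DRE core CCGAC, are shown here because the genes were called lower together and the element is the textbook CBF site. Each line gives the 250 bases before the annotated start from RefSeq's TAIR10.1 assembly, 5′ to 3′ on the strand of the gene, with CCGAC or its complement in capitals. The windows are chr2:17712331-17712580, minus strand and chr5:21240467-21240716, plus strand.
COR15A: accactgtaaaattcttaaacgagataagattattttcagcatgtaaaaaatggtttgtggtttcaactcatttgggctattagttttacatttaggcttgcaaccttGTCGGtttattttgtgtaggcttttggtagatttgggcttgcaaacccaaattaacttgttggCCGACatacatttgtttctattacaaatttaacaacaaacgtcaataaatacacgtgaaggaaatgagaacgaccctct
LTI78: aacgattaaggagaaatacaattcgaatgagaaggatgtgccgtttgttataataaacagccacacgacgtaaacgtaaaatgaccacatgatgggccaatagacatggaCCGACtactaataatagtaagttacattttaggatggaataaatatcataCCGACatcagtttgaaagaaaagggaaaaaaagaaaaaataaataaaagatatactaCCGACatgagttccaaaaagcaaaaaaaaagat
COR15A had 2 matches and LTI78 had 3. Among the 7 called cold genes 3 had a match in this window (42.9%), against 13 of the 68 lower genes (19.1%), 2 of the 18 higher genes (11.1%) and 12.9% of 10846 promoters of the LL table. COR15B had no match in its window. A match is a description of the letters and was not tested as a binding site.

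**Figure D2:**
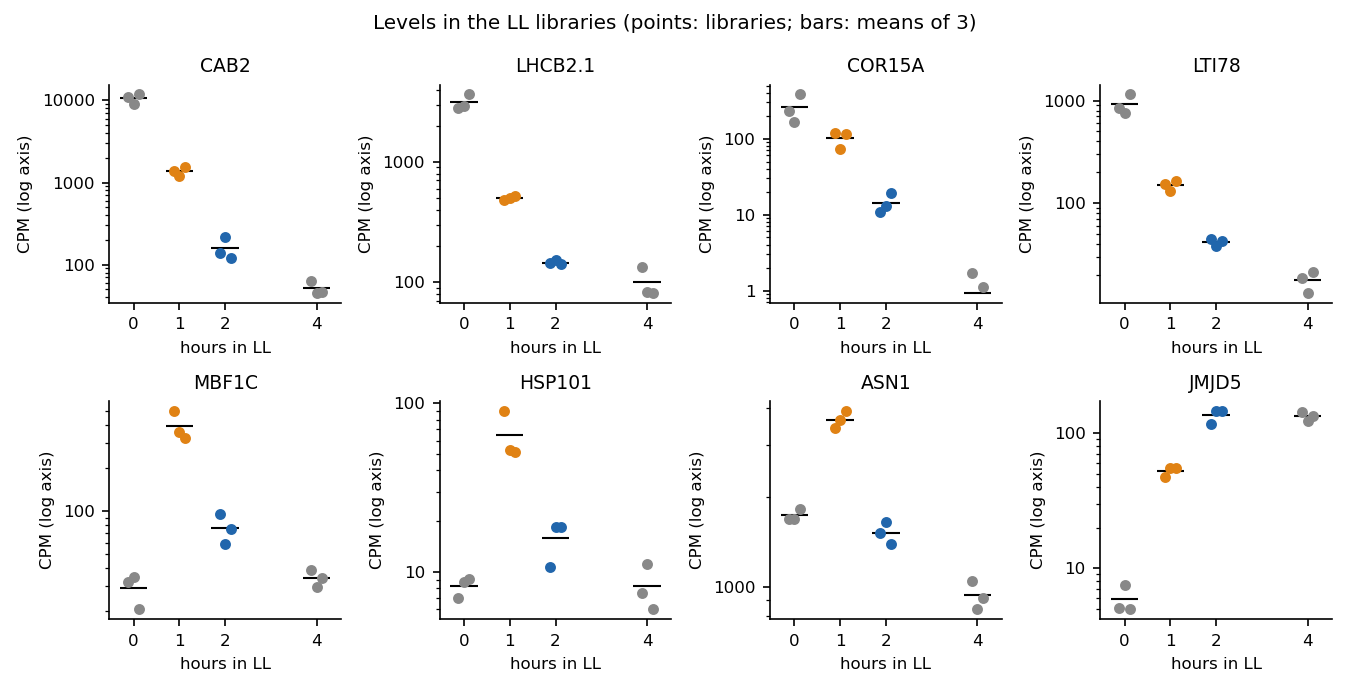
Each panel plots the level of 1 gene (CPM, log axis) in the LL libraries against hours in LL, with points for libraries, bars for means of 3, and the compared 1 h and 2 h libraries in orange and blue. CAB2, LHCB2.1, COR15A and LTI78 were high at 0 h and lower at each later time, MBF1C, HSP101 and ASN1 were highest at 1 h, and JMJD5 rose to 2 h. The COR15A library with 0 counts at 4 h is not drawn.

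In the heat shock list 5 of 16 measured genes were called lower at 2 h and none higher, where 0.622% of all genes were called lower. The list median was -0.63 beside 0.024 over all genes. MBF1C, a transcriptional coactivator of the heat response, had 503, 360 and 323 CPM at 1 h and 95.1, 59.4 and 75.7 CPM at 2 h, with means of 29.1 CPM (SD 7.44, n = 3) at 0 h and 34.2 CPM (SD 4.64, n = 3) at 4 h. The fall was 5.16-fold (log2 change -2.37, SE 0.2, adjusted p = 1.2e-06). HSP101, the chaperone that pulls aggregated proteins apart, had 90.2, 52.7 and 51.2 CPM at 1 h and 10.7, 18.5 and 18.6 CPM at 2 h (log2 change -2.03, adjusted p = 0.000273), around means of 8.28 CPM at 0 h and 8.21 CPM at 4 h. For both genes no library at 2 h reached the lowest one at 1 h, which was a condition for naming them among the largest changes. The other called members of the list, of which 16 of 20 genes were measured, were HSFA2, a heat shock factor that amplifies the response, HSFB2A, a repressor of the same family, and the chaperone HSP70. HSP70 went from 949, 576 and 513 CPM to 322, 285 and 262 CPM (log2 change -1.24, adjusted p = 0.0093), and its call was lost without LL 1 h replicate 1 (-0.91, adjusted p = 0.0748) and without LL 2 h replicate 3 (-1.17, adjusted p = 0.0656). HSFA2 rested on few counts, with 14.7, 5.55 and 5.69 CPM at 1 h and 2.15, 1.54 and 0 CPM at 2 h, and was called in 1 of the 6 fits with a library left out (without LL 2 h replicate 2), with an adjusted p of up to 0.347 in the other 5. HSFB2A too was called in that fit alone, with an adjusted p of up to 0.157.

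Among the named genes that are not in the list, AT2G20560, annotated as a DNAJ heat shock protein, was called lower (118, 88.8 and 63.3 CPM to 27.9, 25.4 and 17.5 CPM, log2 change -1.96), as was AT1G59860, annotated as an HSP20-like chaperone (25.8, 22.2 and 13.0 CPM to 4.29, 6.17 and 2.82 CPM, log2 change -2.25). The call of AT1G59860 was lost without LL 1 h replicate 1 (adjusted p = 0.0766) and LL 2 h replicate 3 (adjusted p = 0.0754). AT1G14200, which the reference annotates as a RING/U-box protein, a family that includes enzymes marking proteins for breakdown, had 264, 200 and 175 CPM at 1 h and 42.9, 53.2 and 53.7 CPM at 2 h (log2 change -2.10, adjusted p = 1.2e-06). Other members of the list were not called. HSC70-1, the constitutive cytosolic HSP70, had means of 4860 CPM (SD 154, n = 3) and 5870 CPM (SD 633, n = 3) with a log2 change of 0.27 (adjusted p = 0.453). AT3G09440, an HSP70 family gene outside the list, was called lower in each of the 6 fits with a library left out. Its log2 change ran from -1.84 to -1.44 in these fits, and it was named after its values were seen. The small chaperone HSP17.4 had means of 83.4 and 69.0 CPM (log2 change -0.31, adjusted p = 0.736). Because HSC70-1 outweighs the other members, the summed level of the list overlapped between the times, with 5998 to 7076 CPM at 1 h and 5929 to 7129 CPM at 2 h.

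The promoter of HSFA2 is shown as the called heat shock gene with the heat shock element GAANNTTC in its window. The 250 bases lie at chr2:11135374-11135623, plus strand, with the 2 matches in capitals.
HSFA2: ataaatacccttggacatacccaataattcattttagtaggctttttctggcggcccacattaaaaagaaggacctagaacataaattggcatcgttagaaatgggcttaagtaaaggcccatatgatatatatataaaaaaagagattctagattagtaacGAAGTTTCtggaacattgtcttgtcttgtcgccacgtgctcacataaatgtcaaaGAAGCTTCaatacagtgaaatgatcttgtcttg
The promoters of MBF1C, HSP101, AT2G20560 and AT1G14200 had no match to these letters within 250 bases. The share with a match was 8.82% of the lower genes, 0 of 18 higher genes and 9.04% of the promoters of the LL table.

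The same hour in HL was the nearest comparison, and it used none of the LL libraries. Across all genes, HL 2 h against HL 1 h gave 50 genes called lower (0.448% of 11166) and 19 called higher (0.17%). The median log2 change over all genes of the HL table was -0.004, beside which the sign counts below stand. Of the 68 genes that fell in LL, 67 were in the HL table, 17 were called lower there and none higher, and 65 had a log2 change under 0. Their median log2 change was -0.76 in HL and -1.26 in LL. Of the 18 genes that rose in LL, 2 were called higher in HL (JMJD5 at 1.38 and FIB2 at 1.04) and none lower, and 14 had a log2 change above 0. The LL members were chosen by their size in LL, so the smaller HL medians are a description and carry no test. Antenna genes were also called lower in HL: CAB2 had 1482, 1337 and 995 CPM at HL 1 h and 230, 189 and 275 CPM at HL 2 h (log2 change -2.46 in HL and -3.10 in LL), and LHCB2.3 changed by -2.71 in HL and -2.61 in LL. The cold list had LTI78 at -1.79 in HL and -1.84 in LL, COR15B at -2.75 and -2.66, and 8 of 14 measured members called lower in HL. In the antenna list 7 of 21 were called lower in HL. List medians were -0.88 in HL and -0.77 in LL for the antenna, and -1.50 and -1.38 for the cold genes. For the heat shock list they were -0.27 and -0.63.

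The difference between the HL step and the LL step was then tested for the 10349 genes that both tables hold, with the 24 libraries fitted together. It called 10 genes (0.0966%), all with a more positive step in HL. The LL step enters this difference with its sign reversed, so genes that fell in LL are favoured among the calls by construction. Of the 10, 6 were genes that fell in LL. Of these, 5 are genes of the heat shock response or RING proteins. AT1G14200 had 168, 200 and 193 CPM at HL 1 h and 177, 147 and 162 CPM at HL 2 h, so that its HL step was -0.21 against -2.10 in LL. The difference of 1.93 (SE 0.222, adjusted p = 3.28e-05) was called in all 12 fits with a library left out. MBF1C had 318, 444 and 366 CPM at HL 1 h and 280, 272 and 232 CPM at HL 2 h, and the difference was 1.88 (SE 0.251, adjusted p = 0.000278), called in 12 of 12 fits. AT2G20560 had 83.8, 115 and 97.9 CPM and then 91.0, 78.1 and 83.8 CPM in HL (difference 1.77, adjusted p = 0.00308, called in 12 of 12 fits). HSP101 had 59.9, 76.1 and 69.1 CPM and then 65.6, 49.4 and 58.3 CPM in HL (difference 1.83, adjusted p = 0.0103), and this call held in 9 of 12 fits, with an adjusted p of up to 0.0776. At 1 h the 2 lights gave overlapping levels of these 4 genes, and at 2 h every HL library was above every LL library, with the caveat that the LL and HL tables were scaled separately.

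AT1G26800, a second RING gene, had a difference of 1.15 (adjusted p = 0.0204), with 139, 131 and 123 CPM at LL 1 h, 61.5, 42.4 and 51.4 CPM at LL 2 h and 89.9 to 100 CPM at HL 2 h. AT3G52060, annotated as an acetylglucosaminyltransferase, changed by -1.13 in LL and by 0.09 in HL (difference 1.26, adjusted p = 0.0253). The 4 remaining genes were not called in the LL step: CYP97A3, a carotenoid hydroxylase (-1.35 in LL and 1.17 in HL, at under 10 CPM in LL), FBA1, a chloroplast aldolase of the Calvin cycle (-0.42 and 0.59), AT3G27090, a DCD domain protein (-0.52 and 0.81), and AT5G26280, a TRAF-like protein (-0.68 and 0.45). These 6 genes were called in 2 to 6 of the 12 fits with a library left out. Without LL 2 h replicate 2 the difference was called for 34 genes, 27 with a more positive step in HL and 7 with a more negative one. Leaving out the first LL 1 h or the first HL 1 h library gave 3 genes. Leaving out the second library of LL 1 h or of HL 1 h, or LL 2 h replicate 1, gave 4 each, and leaving out HL 1 h replicate 3 or the first HL 2 h library gave 6. AT1G26800, CYP97A3, FBA1, AT3G52060 and AT5G26280 were named because they complete the 10, after their values were seen.

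**Figure D3:**
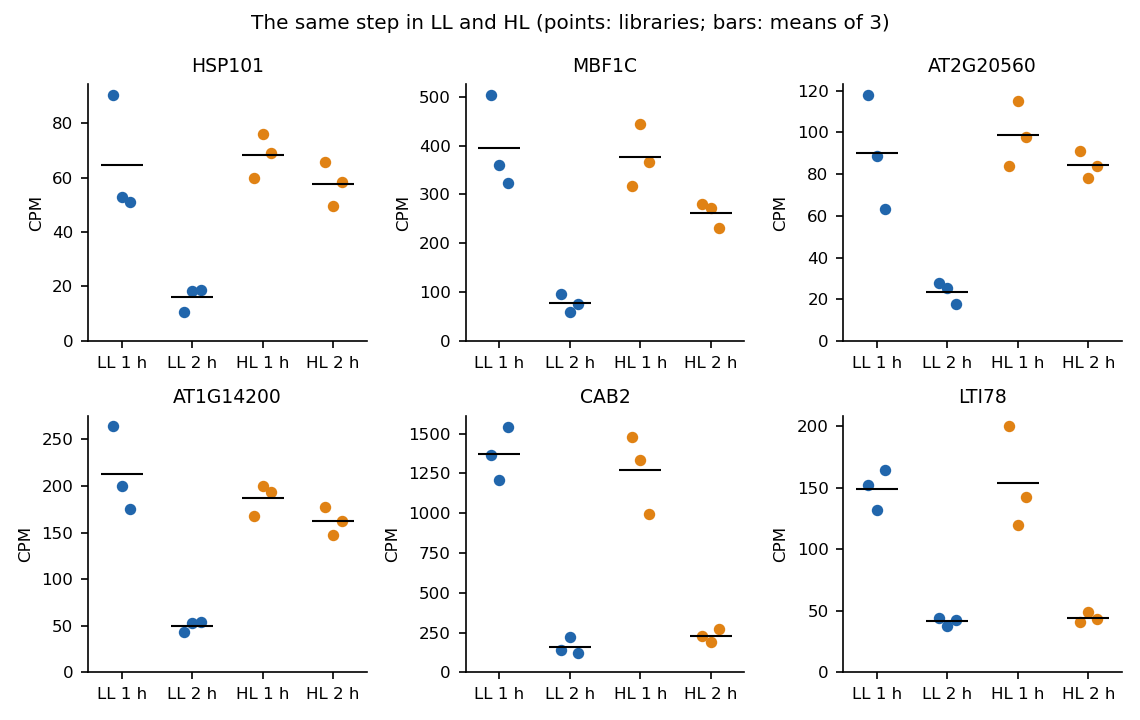
Levels (CPM) of 6 genes are plotted in each library at LL 1 h, LL 2 h, HL 1 h and HL 2 h, with points for libraries and bars for means of 3 (LL in blue, HL in orange). HSP101, MBF1C, AT2G20560 and AT1G14200 were lower at 2 h in LL and were not called in HL, while CAB2 and LTI78 fell in both.

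**Figure D4:**
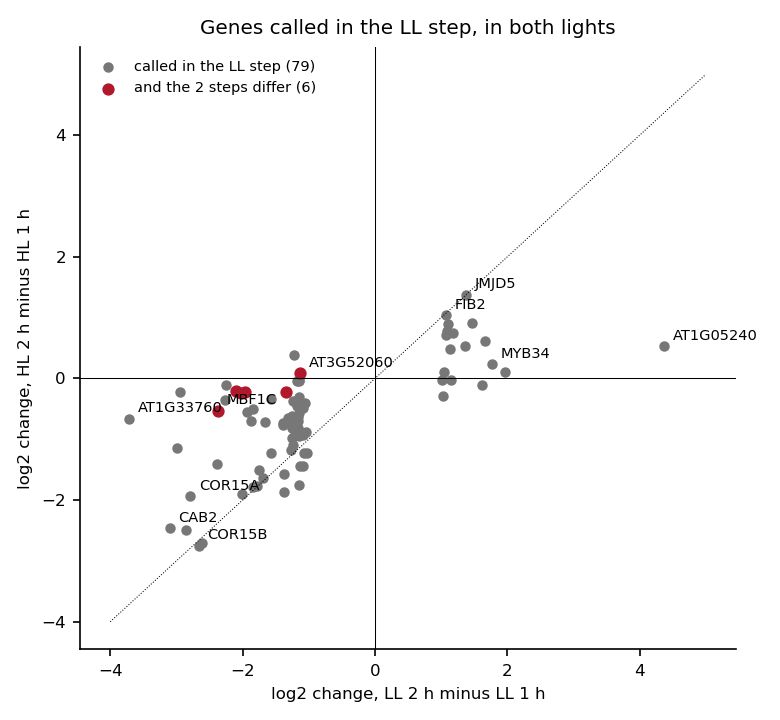
Each point is 1 of the 67 lower and 18 higher genes of the LL step that are also in the HL table, with the log2 change of the step in LL on the x axis and in HL on the y axis. The dotted line marks equal change, and the 6 genes whose steps differed by the test (red) had HL changes from -0.53 to 0.09.

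Several single genes of other pathways fell. In the list of dark-induced and sugar-repressed genes 1 of 20 was called, ASN1, the asparagine synthetase that plants switch on when sugar is short. ASN1 went from 3416, 3634 and 3901 CPM to 1513, 1655 and 1395 CPM (log2 change -1.26, SE 0.124, adjusted p = 8.66e-06), with a mean of 1738 CPM at 0 h, and changed by -0.98 in HL. At any fold 5 of the 20 had an adjusted p under 0.05, all lower, among them the sugar carrier STP1 (-0.77) and the glutamate dehydrogenase GDH1 (-0.84), and the list median was -0.44 (-0.29 without LL 2 h replicate 2). BAM5, a β-amylase, went from 35.0, 27.8 and 54.4 CPM to 4.29, 3.85 and 7.34 CPM (log2 change -2.85, adjusted p = 0.0087), and no longer passed when LL 1 h replicate 3 was left out (adjusted p = 0.0509) or the first 2 h library was (adjusted p = 0.0521). In the starch list BAM3, the chloroplast β-amylase of starch breakdown, had the opposite sign, with means of 102 CPM (SD 0.607, n = 3) and 174 CPM (SD 31.0, n = 3) and a log2 change of 0.77 (adjusted p = 0.0116), under the 2-fold limit.

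Jasmonate genes gave 1 call of 10 in synthesis (0 without LL 2 h replicate 2) and 2 of 15 in signalling and output, all lower. LOX2, the lipoxygenase that starts jasmonate synthesis in the chloroplast, went from 237, 165 and 169 CPM to 62.9, 43.9 and 130 CPM (log2 change -1.25, adjusted p = 0.0123). Leaving out LL 2 h replicate 2 gave -0.97, leaving out LL 1 h replicate 1 gave an adjusted p of 0.0954, and leaving out the first 2 h library gave 0.0863. The vegetative storage proteins VSP2 (440, 311 and 296 CPM to 125, 163 and 171 CPM, log2 change -1.19) and VSP1 (272, 165 and 145 CPM to 70.1, 86.3 and 108 CPM, log2 change -1.14) are jasmonate targets. VSP2 went to -0.98 without LL 1 h replicate 1 and to an adjusted p of 0.0507 without LL 2 h replicate 1, and VSP1 kept its call in 2 of the 6 fits with a library left out, where its log2 change ran from -1.32 to -0.80. Among the JAZ repressors and the enzymes after LOX2, no gene was called. BGLU18, a β-glucosidase that frees abscisic acid from its glucose ester, had 30.9, 18.5 and 22.7 CPM at 1 h and 2.86, 2.31 and 7.91 CPM at 2 h (log2 change -2.39, adjusted p = 0.00231). ZAT6, a zinc finger factor of the stress response, was the 1 called member of 26 rapid stress factors (2 without LL 2 h replicate 2). It had 451, 437 and 398 CPM at 1 h and 215, 130 and 195 CPM at 2 h (log2 change -1.25, adjusted p = 0.000385) after a mean of 136 CPM at 0 h. RD22, an abscisic acid target, went from 118, 119 and 126 CPM to 61.5, 62.4 and 51.4 CPM (log2 change -1.05, adjusted p = 0.00137) and to -0.96 without LL 2 h replicate 3. Of the cell wall genes, EXLA2, an expansin-like gene, had a log2 change of -1.26 (adjusted p = 0.0275) and TCH4, a xyloglucan enzyme induced by touch, -1.88 (adjusted p = 0.04995), and they kept their calls in 2 and 0 of the 6 fits with a library left out. TCH4 was also the 1 call among the 3 measured touch and calmodulin-like genes, whose median was -0.99 (-1.80 without LL 2 h replicate 3).

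The genes that rose were few and of low to moderate level. JMJD5, a histone demethylase gene of the evening phase of the clock, had 47.6, 55.5 and 55.2 CPM at 1 h and 117, 145 and 146 CPM at 2 h, after a mean of 5.87 CPM (SD 1.45, n = 3) at 0 h and before 134 CPM (SD 10.7, n = 3) at 4 h. Its log2 change was 1.38 (SE 0.151, adjusted p = 2.86e-05), and in HL it was also 1.38, with 51.3, 44.6 and 44.5 CPM and then 108, 126 and 132 CPM. It was the single called gene of 23 measured clock genes, whose median was -0.01. The evening genes LUX (-0.01, adjusted p = 0.996) and GI (-0.21, adjusted p = 0.726) were not called. MYB34, a factor that activates indole glucosinolate synthesis, had 6.08, 4.63 and 7.31 CPM at 1 h and 22.2, 23.9 and 16.9 CPM at 2 h (log2 change 1.77, SE 0.289, adjusted p = 0.00234), and its mean at 0 h was 18.9 CPM. The 1 h libraries were thus its low point. No other gene of the 20 measured for glucosinolate synthesis was called, and the list median was 0.30, with 0.11 when LL 1 h replicate 3 was left out and 0.02 when LL 2 h replicate 3 was. JMJD5 and MYB34 were the 2 higher genes called with every library left out.

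FIB2, a fibrillarin of the nucleolus that takes part in methylation of ribosomal RNA, had 34.5, 28.7 and 28.4 CPM at 1 h and 49.3, 67.8 and 78.0 CPM at 2 h (log2 change 1.08, adjusted p = 0.00311, and 0.92 without LL 2 h replicate 3). CNGC4, a cyclic nucleotide-gated ion channel of defence signalling, had 24.3, 41.6 and 38.2 CPM at 1 h and 71.5, 80.9 and 63.8 CPM at 2 h (log2 change 1.09, adjusted p = 0.0032, and 0.85 without LL 1 h replicate 1). CSLB03, a cellulose synthase-like gene, had 16.2, 20.4 and 17.1 CPM at 1 h and 62.9, 26.2 and 55.9 CPM at 2 h (log2 change 1.46, adjusted p = 0.0106). Its adjusted p was 0.0777 and 0.0567 when LL 1 h replicates 1 and 3 were left out, and 0.0689 and 0.0703 when LL 2 h replicates 1 and 3 were. The others named by the rule were its neighbour CSLB04 (1.18), the strigolactone gene CCD8 (1.08), the plasmodesmal gene HWI1 (1.05), the non-coding AT2G08650 (1.15), AT1G23205 (1.14), AT2G24280 (2.15-fold) and AT5G23830 (1.01), which kept their calls in 1 to 3 of the 6 fits with a library left out.

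Some calls rested on 1 library or on few counts, and the genes of this paragraph were picked after their values were seen. AT4G03926 had 38, 0 and 3.25 CPM at 1 h, so that 75 of its 79 counts came from LL 1 h replicate 1, and 1 count at 2 h. Without that library its adjusted p was 0.599. AT1G33760, annotated as an integrase-type DNA-binding protein, had 29 counts at 1 h and 2 at 2 h, a ratio of 15.1 with an exact 95% interval of 3.82 to 131 for counting error. The peroxidase genes AT1G05240 and AT4G11290 were called higher while LL 2 h replicate 2 stayed at the 1 h level. AT1G05240 had 26.5, 0.771 and 19.8 CPM at 2 h, 3 counts at 1 h and 73 counts at 2 h, a ratio of 23.4 (exact 95% interval 7.68 to 116, counting error only). AT4G11290 had 10.1, 6.48 and 10.6 CPM at 1 h and 47.9, 10 and 48.6 CPM at 2 h. In the same library LURP1, a defence gene, was at 17.7 CPM, beside 45.1 and 60.5 CPM in the other 2 h libraries. Of the 6 fits with a library left out, these 3 genes kept their calls in the 1 without LL 2 h replicate 2, and their adjusted p was up to 0.15, 0.175 and 0.212 in the others. Whether the remaining 2 libraries or replicate 2 stand for LL 2 h was not tested.

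LL 0 h and LL 4 h are the LL groups that the step did not compare, though they entered its estimate of spread. LL 4 h against LL 0 h called 10.8% of all genes lower and 5.74% higher. Of the 68 genes that fell in the step, 50 were called lower at LL 4 h against LL 0 h and none higher, with a median log2 change of -2.18. The 18 that were not called there were HSP101, MBF1C, HSFA2, HSFB2A, HSP70, HSP81-2, AT2G20560, AT1G59860, AT1G14200, AT1G26800, ZAT6, ASN1, AT5G02160, AT5G24490, AT3G52060, P4H5, AGP30 and AT4G03926, which hold all 5 called members of the heat shock list. By contrast the 7 called antenna genes changed by -2.58 to -7.68 from 0 h to 4 h, and the 7 called cold genes by -4.18 to -8.02. AT3G09440, the HSP70 family gene outside the heat shock list, was also not among those 18. Of the 18 genes that rose in the step, 11 were called higher at LL 4 h against LL 0 h and none lower, and JMJD5 had the largest of their changes in this set (4.47). The steps on either side, LL 1 h against 0 h and LL 4 h against 2 h, share libraries with the step, so only their values are given. MBF1C changed by 3.74, -2.37 and -1.17 in the 3 steps in order of time, HSP101 by 2.99, -2.03 and -0.95, CAB2 by -2.95, -3.10 and -1.62, LTI78 by -2.61, -1.84 and -1.24, and JMJD5 by 3.11, 1.38 and -0.03.

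Of the 4 singlet oxygen and 4 superoxide markers that the study used, 3 each were measured in the LL table, and none was called. For singlet oxygen, BAP1 had means of 70.8 CPM (SD 2.77, n = 3) at 1 h and 57.5 CPM (SD 17.7, n = 3) at 2 h, with a log2 change of -0.28 (SE 0.197, adjusted p = 0.634). AT5G64870, annotated as a membrane-associated SPFH domain protein, had a log2 change of -0.80 (SE 0.474, adjusted p = 0.552) and AT5G13200 of -0.26 (SE 0.271, adjusted p = 0.778), and for all 3 the libraries of both times overlapped. For superoxide, the ferritin FER1 had means of 1046 CPM (SD 97.9, n = 3) and 962 CPM (SD 171, n = 3) and a log2 change of -0.12 (SE 0.151, adjusted p = 0.825), MYBL2 -0.06 (SE 0.685) and AT4G21870 0.56 (SE 0.492). Single libraries moved several of these values. Without LL 2 h replicate 3 AT5G64870 was at -1.96 (adjusted p = 0.0986) and BAP1 at -0.52, and over the 6 fits with a library left out AT5G64870 ran from -1.96 to -0.47, BAP1 from -0.52 to -0.08 and AT4G21870 from 0.11 to 0.84. The SEs leave room for changes on the scale of the 2-fold limit in AT5G64870, MYBL2 and AT4G21870.

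Other lists without a called member were those of flavonoid synthesis, light signalling, auxin, cytokinin, ethylene, hypoxia, nitrate, aquaporins and detoxification, of which the last had 1 higher call without LL 2 h replicate 2. The list medians and members are plotted for 19 lists.

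**Figure D5:**
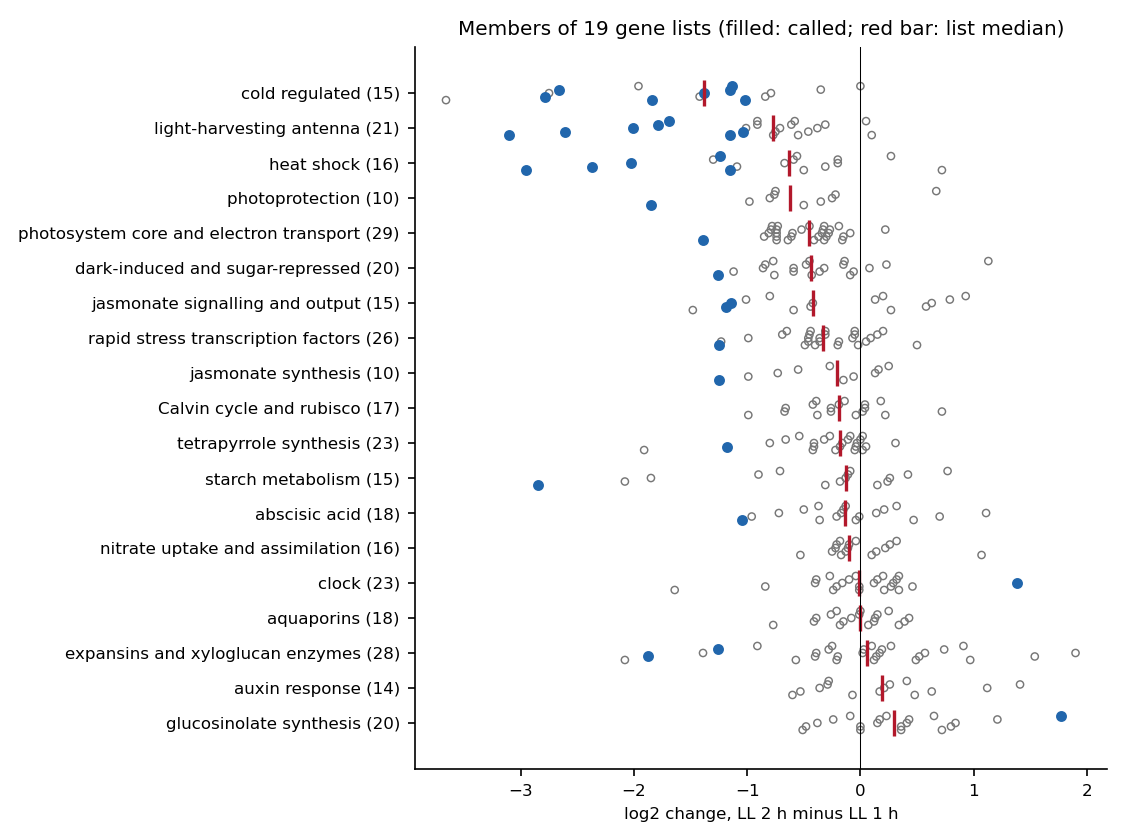
Each row is 1 of 19 gene lists with the number of measured members in brackets, and each point is a gene placed by its log2 change of LL 2 h minus LL 1 h (filled if called). The red bars mark list medians, at -1.38 for the cold-regulated and -0.77 for the antenna genes and near 0 for the clock and aquaporin genes. The other 12 lists, among them the touch and calmodulin-like genes, are not drawn.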

How the data were processed

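*Ch1* seedlings were sequenced by MARS-seq in 24 libraries. The authors trimmed reads with cutadapt, mapped them to Araport 11 with STAR 2.4.2a and counted genes with HTSeq, and deposited 1 table of raw counts per light. Whether molecular identifiers were collapsed is not given in the sources used here, and intervals cover counting error only. Beside the counts, the authors deposited normalized values (signal) and log2 values, which entered no test, and columns of their own comparisons (fold changes and p-values), which were not used.

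All 12 LL libraries were fitted with edgeR 4.0.16 (R 4.3.3, quasi-likelihood test, TMM scaling, no block, no further filter), as were the HL libraries, and all 24 for the difference between steps. The thresholds are given with the results. In simulated LL data of 10930 genes, changes were placed only among the 7288 genes above a minimum mean count. There 94% of 4-fold changes were called, and of 2-fold changes 54% passed the adjusted p and 37% were called, the 2-fold limit lying at the simulated size. Counts were drawn gene by gene, and no simulated library was made to stand apart as LL 2 h replicate 2 does. The rates do not cover genes of fewer counts. Alternatives were RLE scaling, DESeq2 1.42.0, filterByExpr, the compared libraries alone, a replicate block, adjusted p alone and each library left out.

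Members, the 31 gene lists and the motifs were chosen with earlier results of these data known. Named genes are the 12 largest called changes each way with groups that do not overlap and at least 20 CPM in the higher group, the 2 called genes of lowest p each way in every list, the reactive oxygen markers, and the 5 largest called differences between steps among genes whose highest group mean reached 20 CPM. Further list members were named after their values were seen. Of the gene identifiers, 10848 matched a TAIR10.1 locus tag, and both strands of each promoter were searched. MYB60, WOX5, IRT1 and SKOR were not analysed here.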

Additional observations from a re-analysis of the deposited data

Results flagged for a closer look

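In 10 genes the step from 1 h to 2 h differed between HL and LL by the test of the difference in all 24 libraries (edgeR's quasi-likelihood test, adjusted over 10349 genes). The difference on the log2 scale, HL step minus LL step, was 1.93 for AT1G14200, 1.88 for MBF1C, 1.83 for HSP101 and 1.77 for AT2G20560. It was 1.15 for AT1G26800, 1.26 for AT3G52060, 2.56 for CYP97A3, 1.05 for FBA1, 1.36 for AT3G27090 and 1.17 for AT5G26280. FBA1 went to 0.87 and AT3G27090 to 1.13 at the lowest with 1 library left out, and CYP97A3 rested on levels under 10 CPM in LL. Groups of 3 libraries are too small for a test of single outlying libraries.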

How the results depend on the processing

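In the LL step, RLE scaling, DESeq2, filterByExpr, the libraries compared alone and the replicate block each gave counts of calls within 1.5 times of 86, 18 higher and 68 lower, and DESeq2 called 15 of the same 18 and 55 of the same 68. Adjusted p alone gave 203 genes, 42 higher and 161 lower. With 1 library left out the calls ran from 53 to 127, from 6 to 48 higher and from 45 to 79 lower. In the HL step adjusted p alone gave 174 genes, 71 higher and 103 lower against 69, 19 and 50, and 1 library left out gave 38 to 91, 10 to 22 higher and 23 to 73 lower. For the difference between the steps 10 genes were called, 1 library left out gave 3 to 34, from 3 to 27 with a more positive HL step and from 0 to 7 with a more negative one. Of the 35 named genes called in the step, 17 were called under every alternative run, none changed sign, and 59 of 210 values with a library left out and 12 of 175 values under the other settings lost the call. Of the markers that were not called, the sign turned with 1 library left out in AT5G13200 (-0.43 to 0.14), FER1 (-0.26 to 0.00) and MYBL2 (-0.25 to 0.12). The replicate block gave 83 calls, 15 higher and 68 lower, and no label says that its numbers pair the libraries. The deviations of LL 1 h and LL 2 h libraries with the same number correlated at 0.0569, 0.0629 and -0.0857 across 7288 genes. Those with different numbers correlated at -0.136 to 0.137. Such values, taken as deviations from means of 3, cannot decide whether the libraries were paired. The main limits are 3 libraries a side, LL 2 h replicate 2, and a depth of 1163870 to 2061753 counts. At this depth 54% of 2-fold changes simulated in genes above a minimum mean count passed the adjusted p. List medians were taken again under RLE scaling, DESeq2, the replicate block and each library left out. Of these, 239 moved by less than the spread between the LL 2 h libraries, 40 moved by more, and in 27 cases the sign changed. That spread includes LL 2 h replicate 2 and leaves out the spread at 1 h.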
